A study of Mus musculus with 32 samples.

Results

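The albumin gene cluster is a set of 4 linked genes on mouse chromosome 5, Alb, Afp, Afm and Gc, which encode related proteins of the blood plasma. The genes were taken by symbol and matched to the Ensembl identifiers of the count files through the GENCODE annotation, and they are 4 of the 25059 genes counted in RNA-seq. All 4 are also among the 25058 genes present in the files of every assay. The tissues came from wild-type C57BL/6J female mice aged 6 to 7 months. Treated mice received 1 intraperitoneal dose of 10 mg/kg cisplatin at ZT1 (hours after lights on) and controls received the same volume of saline. Both were killed at ZT5, which is 4 h after injection, although a further label of each sample gives 2 h. From kidney, liver, lung and spleen of cisplatin mice, 2 Damage-seq and 2 XR-seq libraries were made per organ. RNA-seq covered 2 control and 2 cisplatin libraries per organ. A note of the submitters describes the control and cisplatin labels of the lung and spleen RNA-seq libraries as corrected, and the corrected labels were used. Reads on genes ranged from 1571167 to 6441367 per Damage-seq library, from 10658675 to 59779770 per XR-seq library and from 15619474 to 162270280 per RNA-seq library. The study's methods call the replicates biological, and describe the chromatin pellet of the XR-seq procedure as kept for Damage-seq. Neither they nor the labels say which libraries of different organs or assays share an animal.

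Albumin, the main protein of plasma, carries fatty acids, hormones and many drugs. Alpha-fetoprotein, the product of Afp, is its fetal counterpart, made by the yolk sac and fetal liver and largely switched off after birth. Afamin, the product of Afm, binds vitamin E, and the vitamin D binding protein, the product of Gc, carries vitamin D and binds free actin. All belong to 1 protein family that arose by gene duplication, and in the adult their main source is the hepatocyte. Cisplatin links neighbouring purines of a DNA strand, mostly at GG, the pair of adjacent guanines. Nucleotide excision repair cuts out a short single-stranded piece with the adduct: a global pathway scans both strands, and a transcription-coupled pathway is called by RNA polymerase stalled at an adduct of the transcribed strand (TS). The other strand is the non-transcribed strand (NTS). Damage-seq counts adducts still in the DNA, XR-seq counts the pieces cut out, and both were therefore given here as RPM (reads per 1000000 reads on genes) per 1000 GG of the strand.

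The genes lie on chromosome 5 of the mm10 (GRCm38) assembly. Gc (ENSMUSG00000035540, chr5:89417522-89457898) is on the minus strand. Alb (ENSMUSG00000029368, chr5:90460897-90476602), Afp (ENSMUSG00000054932, chr5:90490737-90508907) and Afm (ENSMUSG00000029369, chr5:90518932-90553543) follow each other on the plus strand. Gc is 1003 kb from Alb, whereas 14.134 kb separate Alb from Afp and 10.024 kb separate Afp from Afm. The strands held similar numbers of GG: 644 on the TS and 714 on the NTS of Alb, 798 and 901 in Afp, 1893 and 1687 in Afm, and 1903 and 2001 in Gc. An annotated antisense gene, Gm43449 (chr5:90499088-90515931, minus strand), overlaps 9820 bp of Afp, 54.0% of its length, and is not among the genes counted. The RNA-seq kit does not mark strand, so reads from Afp and from Gm43449 cannot be told apart where their exons overlap.

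The promoters are shown because expression of the cluster in the hepatocyte is known to rest on liver transcription factors that bind close to the gene starts, among them HNF1. The sequences are those of RefSeq on GRCm38.p6, from 250 bases before to 50 bases after the start, 5′ to 3′ in the direction of transcription. All 4 genes matched the RefSeq table. Capitals mark the match to GTTAATNAT, a form of the core of the HNF1 site that was chosen after these sequences had been read.
Alb (chr5:90460620-90460919, plus strand): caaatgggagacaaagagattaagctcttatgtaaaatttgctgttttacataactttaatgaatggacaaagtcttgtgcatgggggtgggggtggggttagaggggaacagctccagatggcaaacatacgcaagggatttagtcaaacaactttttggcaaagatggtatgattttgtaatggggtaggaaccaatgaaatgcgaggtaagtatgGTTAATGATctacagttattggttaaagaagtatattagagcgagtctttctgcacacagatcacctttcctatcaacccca
Afp (chr5:90490464-90490763, plus strand): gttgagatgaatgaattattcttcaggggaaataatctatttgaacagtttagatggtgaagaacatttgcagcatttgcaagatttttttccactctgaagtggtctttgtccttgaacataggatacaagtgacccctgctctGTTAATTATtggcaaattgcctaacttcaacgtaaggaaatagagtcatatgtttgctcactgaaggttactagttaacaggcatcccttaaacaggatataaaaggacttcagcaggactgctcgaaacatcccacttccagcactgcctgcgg
Afm (chr5:90518699-90518998, plus strand): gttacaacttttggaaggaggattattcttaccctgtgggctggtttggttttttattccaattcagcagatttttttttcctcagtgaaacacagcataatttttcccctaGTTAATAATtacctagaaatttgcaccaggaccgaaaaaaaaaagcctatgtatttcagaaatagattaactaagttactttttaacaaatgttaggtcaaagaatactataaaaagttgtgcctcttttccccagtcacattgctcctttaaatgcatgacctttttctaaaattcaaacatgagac
Gc (chr5:89457849-89458148, minus strand): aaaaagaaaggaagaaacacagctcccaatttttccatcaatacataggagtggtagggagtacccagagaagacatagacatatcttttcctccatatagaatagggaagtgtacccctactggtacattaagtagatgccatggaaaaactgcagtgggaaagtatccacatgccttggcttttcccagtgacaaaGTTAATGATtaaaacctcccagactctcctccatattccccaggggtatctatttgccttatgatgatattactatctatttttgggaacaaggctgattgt

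Both strands were searched, and the single match of each promoter lay on the coding strand, 32 to 24 bases before the RefSeq start in Alb, 105 to 97 in Afp, 138 to 130 in Afm and 52 to 44 in Gc. For Alb, Afp and Afm the RefSeq start differs from the start of the GENCODE coordinates given above. The letters GTTAATNAT occurred in 263 of 32851 promoters of this length, 0.801%. A match is a description of the letters and was not tested as a binding site.

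The first question was where the cluster is expressed. Alb, Gc and Afm were liver genes in these samples, and Afp was low everywhere. RNA levels are given as RPKM, RPM per kilobase of merged exons. Alb had 24189.1 and 47945.4 RPKM in the 2 control livers and 40889.2 and 41693 RPKM in the 2 cisplatin livers, and ranked 1 of 25041 genes in each of the 4. Gc had 4204.66 and 4091.71 RPKM in control and 4127.55 and 4038.74 RPKM in cisplatin livers, ranks 6 to 10. Afm, the weakest of the 3, had 115.5 and 139.3 RPKM in control and 121.8 and 121.1 RPKM in cisplatin livers. Afp had 1.25 and 0.496 RPKM in control and 1.22 and 0.380 RPKM in cisplatin livers and stood between the 57.0th and 62.3rd percentile of all genes. In liver the mean RPKM of Alb and Afp thus differed by a factor of 51452.9 in cisplatin mice, although the genes are neighbours.

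Outside the liver, kidney came next for Gc and Afm. Gc ranged from 74.4 to 84.1 RPKM over the 4 kidney libraries, from 0.448 to 3.80 RPKM in lung and from 0.0124 to 13.5 RPKM in spleen. Afm had 23.9 and 24.1 RPKM in control and 17.0 and 19.6 RPKM in cisplatin kidneys, and lay at or under 0.376 RPKM in every lung and spleen library. The kidney libraries of both genes lay above every lung and spleen library and below every liver library. Alb had 48.2 and 72.4 RPKM in control and 27.9 and 19.1 RPKM in cisplatin kidneys. In lung it had 34.1 and 23.2 RPKM in control and 17.6 and 0.589 RPKM in cisplatin mice. Its spleen values were 11.3 and 4.06 RPKM in control and 115.8 and 0 RPKM in cisplatin mice, and its kidney, lung and spleen ranges overlapped. Afp had 1.15 and 0.994 RPKM in control and 1.47 and 1.62 RPKM in cisplatin spleens, its highest mean of an organ in RPKM, which scales by library size alone. With TMM scaling the fitted log2 level was 0.39 ± 0.44 (SE) higher in liver than in spleen, which did not pass the test. The Afp values of spleen overlapped those of liver, and kidney (0.312 to 0.684 RPKM) and lung (0.193 to 0.514 RPKM) overlapped each other and the lower liver libraries.

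The hepatocyte marker list, 14 genes such as Apoa1, Fgb and Cps1, moved with the Alb level outside the liver. Its summed level was 37984 to 60907 RPKM in liver and 84.7 to 148.6 RPKM in kidney. In spleen it was 21.7 and 11.9 RPKM in the control libraries, 198.2 RPKM in the cisplatin library with 115.8 RPKM of Alb, and 8.38 RPKM in the one with no Alb read, where 7 of the 14 genes, among them Fga, Fgb and Cps1, were also at 0. In lung it was 22.1 RPKM in the cisplatin library with the least Alb and 40.3 to 53.8 RPKM in the others. The part of hepatocyte RNA in the Alb levels of the other organs was not tested. These are bulk tissues, in which fewer cells of a type and less RNA per cell cannot be told apart.

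**Figure D1:**
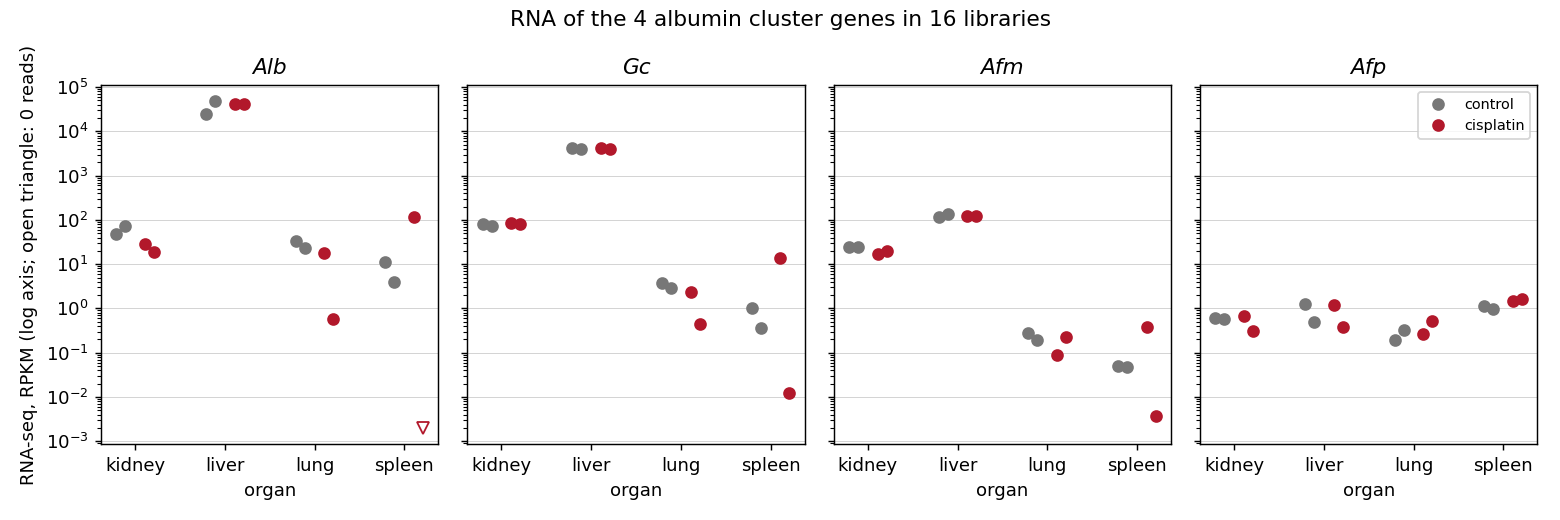
RNA-seq level of Alb, Gc, Afm and Afp in kidney, liver, lung and spleen of control and cisplatin mice, in RPKM on a log axis with 1 point per library. The liver libraries of Alb, Gc and Afm lie above all others, those of Afp overlap the spleen, and the spleen cisplatin libraries of Alb lie at 115.8 and 0 RPKM.

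Alb, Gc and Afm passed the test of higher expression in liver than in each other organ, and Afp did not. The test (edgeR quasi-likelihood, fold change tested against 0.4 on the log2 scale, adjusted p under 0.05 against kidney, lung and spleen alike) called 1773 of 19100 genes higher in liver, 9.28%. For Alb the log2 differences were 10.88 ± 2.32 (SE) from kidney, 12.46 ± 3.34 from lung and 12.08 ± 3.30 from spleen, with a largest adjusted p of 0.00811. Gc differed by 6.55 ± 1.37, 12.09 ± 2.32 and 12.11 ± 2.32, with a largest adjusted p of 0.00237. Afm differed by 3.43 ± 0.65, 10.49 ± 1.21 and 11.53 ± 1.27, with a largest adjusted p of 0.00144. Afp was higher in liver than in kidney (log2 difference 1.41 ± 0.41, adjusted p = 0.0257) and lung (2.35 ± 0.49, adjusted p = 0.00214), and its difference from spleen was 0.39 ± 0.44 (adjusted p = 0.551). The Afp differences depended on the scaling: with libraries scaled by size only they were 0.63, 1.30 and -0.61 on the log2 scale, none of them past the test, while Alb, Gc and Afm still passed. The Afp call against kidney was also lost without either kidney control, the second kidney cisplatin, the first liver control or the first liver cisplatin library (adjusted p from 0.0615 to 0.135), and with control or cisplatin samples only (0.121 and 0.102). With control samples only, Alb lost its call against lung (0.0712). With a term for the replicate number in kidney and liver (a replicate block), Alb and Gc lost theirs against kidney (0.0503 and 0.05). Only Afm then passed against each organ. Scaling by size only moved the median log2 difference of all genes to between -1.52 and -0.90, from between -0.49 and -0.08. The share of calls that were higher in liver went from 46.4% to 14.4%.

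The next question was whether cisplatin changed the RNA of the cluster within 4 h. No member was called in any organ. The control and cisplatin livers overlapped for every member, with fitted log2 changes from -0.19 to 0.17. The changes ranged from -1.32 to 0.14 in kidney and from -1.55 to 0.44 in lung. By edgeR, 0 of the 16 tests had an unadjusted p under 0.05 and the lowest adjusted p was 0.923, and DESeq2 also called 0. Of all genes tested, the kidney contrast called 3.12%, that of liver 2.71%, that of lung 0.366% and that of spleen 0.136%. The Alb values of kidney, 48.2 and 72.4 RPKM in control against 27.9 and 19.1 RPKM in cisplatin mice, did not overlap. Their log2 difference was -1.32 ± 2.20 and was not called. The error of a gene comes from a spread that all groups of organ and treatment share, the uneven spleen cisplatin pair included. It is not the spread between the libraries of an organ. For Gc in liver it was 1.52, with libraries from 4039 to 4205 RPKM. These tests could therefore miss changes within an organ. The groups also did not overlap for Afm in kidney, Alb in lung, Gc in lung (3.80 and 2.93 RPKM in control against 2.31 and 0.448 in cisplatin mice) and Afp in spleen, where the values were higher in cisplatin mice, and none of these was called. By edgeR and DESeq2 no member was called for a difference between the response in liver and that in another organ, with 0 of 12 unadjusted p under 0.05 by edgeR.

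In spleen the fitted log2 changes of Alb, Gc and Afm were 3.17 ± 3.14, 3.53 ± 2.26 and 1.73 ± 1.37, and they rested on 1 library. The first cisplatin spleen had 9982 Alb reads and the second had 0. Without the first, the 3 changes became -12.73, -5.44 and -3.48, again not past the test. Without both of these libraries the comparison of liver with spleen still called Alb, Gc and Afm.

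XR-seq then showed how much repair fell on each gene. On the TS, Alb, Gc and Afm were repaired most in liver, while the TS of Afp had overlapping values in liver and spleen. TS levels of Alb in liver were 15.5 and 31.4 RPM per 1000 GG (527 and 850 reads), against 0 and 1.84 in kidney, 0 and 0.219 in lung and 0 and 0.627 in spleen. Gc had 10.6 and 12.1 in liver, 4.85 and 6.12 in kidney, 0.0176 and 0.247 in lung and, from 2 reads in all, 0 and 0.0303 in spleen. For both genes the liver libraries lay above all others. Afm had 9.38 and 10.2 in liver, 3.90 and 3.22 in kidney, 0 and 0.112 in lung and 0 and 0.122 in spleen. Afp had 2.90 and 6.07 in liver, 0 and 2.33 in kidney, 0 and 0.470 in lung and 4.94 and 5.50 in spleen, so that liver and spleen overlapped. In kidney, lung and spleen alike the first library had 0 TS reads of Alb, and the values above 0 came from the second. A count of 0 allows up to 3 reads, which is at most 0.437 RPM per 1000 GG in these libraries. All such limits and intervals cover counting error only, since the reads are PCR products.

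Alb and Afm were called higher on the TS in liver than in each other organ, by edgeR quasi-likelihood test with TMM scaling, as were 12.5% of all genes tested. The log2 differences from kidney, lung and spleen were 4.97 ± 1.19, 8.12 ± 1.43 and 6.06 ± 1.30 for Alb (largest adjusted p = 0.00437). For Afm they were 1.83 ± 0.65, 7.87 ± 0.91 and 7.05 ± 0.92 (largest adjusted p = 0.0377). Gc was higher than in lung (6.81 ± 0.74, adjusted p = 5.71e-06), and it differed by 9.11 from spleen and by 1.43 ± 0.56 from kidney (adjusted p = 0.0574). The Gc difference from kidney passed with DESeq2 (0.0386), with no filter on low counts (0.0035) and with a replicate block (0.0367). Afp differed by 2.30 ± 1.41 from kidney (adjusted p = 0.227), by 4.59 ± 1.58 from lung (adjusted p = 0.0304) and by 0.04 ± 1.33 from spleen (adjusted p = 0.99). The Afm call was lost without either liver library (adjusted p = 0.201 and 0.233 against kidney) and with scaling by library size only (0.0992). That of Alb was lost without the second liver library (0.104 against kidney), and both were lost with DESeq2, which called Gc instead. The Afp difference from lung was lost with DESeq2 (0.12) and without either liver library, the first lung library or either spleen library (0.0564 to 0.16).

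The NTS set Afp apart. In liver the NTS of Afp had 36.2 and 30.2 RPM per 1000 GG (1721 and 1144 reads), at the 96.8th and 95.2nd percentiles of 24616 genes. In the other organs it had at most 0.636: 0 and 16 reads in kidney, 0 and 5 in lung, 1 and 11 in spleen. Both liver libraries of Afp were thus far above the 6 others. Alb, Gc and Afm had far less NTS repair in liver, 1.75 and 6.06, 1.51 and 2.49, and 1.03 and 1.39. Afp was the only member called higher on the NTS in liver than in each other organ, a call that 2.75% of genes shared. Its log2 differences were 6.75 ± 0.92 from kidney, 8.56 ± 1.05 from lung and 6.54 ± 0.95 from spleen, with a largest adjusted p of 0.00103, and the call held under every alternative tried, each left-out library included. Gc was higher than in lung (3.32 ± 0.86, adjusted p = 0.0241) and spleen (4.92 ± 1.01, adjusted p = 0.00746), and its NTS had 4.43 and 1.56 in kidney, so that kidney and liver overlapped. The Gc difference from lung was lost without any 1 of the liver and lung libraries (adjusted p from 0.093 to 0.193), and that from spleen without the second liver library (0.061). DESeq2 added Alb to the NTS call. Over 54.0% of Afp the NTS is also the transcribed strand of Gm43449, and the counts do not separate the repair of these overlapping genes.

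**Figure D2:**
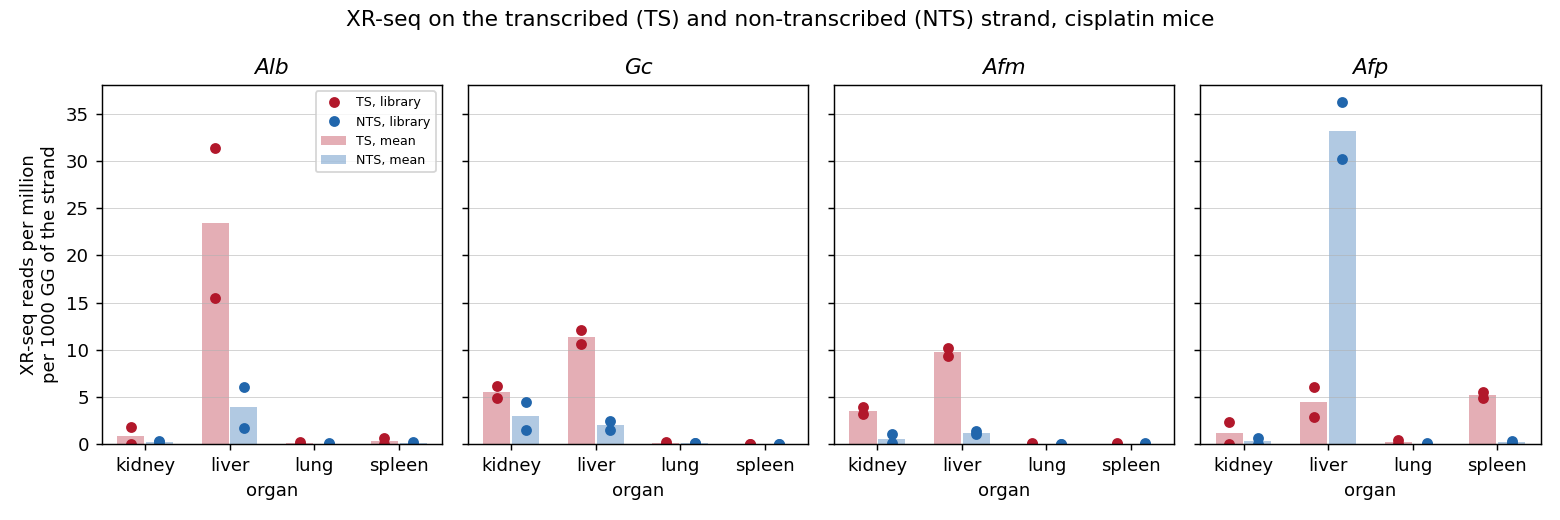
XR-seq level of the transcribed (TS) and non-transcribed strand (NTS) of each member in the 4 organs of cisplatin mice, in RPM per 1000 GG, with points for the 2 libraries and bars for their mean. In liver the TS bar is the taller one for Alb, Gc and Afm, and the NTS bar, with points at 36.2 and 30.2, is the taller one for Afp.

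Within an organ, the strands of a gene can be compared directly. Afp was repaired mostly on its NTS in liver and mostly on its TS in spleen. In liver, 326 of 3191 Afp reads were on the TS, 10.2% (95% Wilson interval 9.21% to 11.3%), although the TS held 47.0% of the GG. The share was 6.62% in the first and 15.1% in the second liver library. In spleen it was 94.2% (90.1% to 96.6%, 206 reads), in kidney 76.5% (65.1% to 85.0%, 68 reads) and in lung 76.2% (54.9% to 89.4%, 21 reads). All Afp reads of kidney and of lung came from the second library of the organ. For Alb, Gc and Afm in liver the TS held 84.7%, 84.6% and 90.1% of the reads. Over all genes the TS held 83.8% and 85.3% of the reads in the 2 liver libraries, so these 3 members lay at or near the share of all genes and Afp far below it.

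The test of TS against NTS, offset by GG, called Afp in both directions. In liver its log2 ratio of TS to NTS was -2.97 ± 0.76 (adjusted p = 0.0155), where 5.72% of genes were called with the NTS higher. In spleen the ratio was 4.46 ± 0.88 (adjusted p = 0.00439), where 54.2% of genes were called with the TS higher. Afm and Gc were called with the TS higher in liver, with log2 ratios of 3.02 ± 0.92 (adjusted p = 0.0309) and 2.55 ± 0.86 (adjusted p = 0.0382), and that of Alb was 2.75 ± 1.34 (adjusted p = 0.136). The background for the TS being higher was 48.1% in liver. In kidney Afm was called (3.15 ± 1.00, adjusted p = 0.0336) against a background of 52.8%, and in lung no member was, against 55.4%. All 3 calls in liver were lost without either liver library (adjusted p from 0.119 to 0.314), although the ratio kept its sign in each. That of Afm in kidney was lost without the second kidney library or either liver library.

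The log2 ratio of Afp was different between liver and spleen by -7.43 ± 1.16 (adjusted p = 0.0117). From kidney it differed by -4.81 ± 1.32 (adjusted p = 0.105) and from lung by -4.67 ± 1.37 (adjusted p = 0.068). No member was therefore called in all 3 contrasts, as 2.11% of genes were. By edgeR, 4 of the 12 contrasts had an unadjusted p under 0.05. The difference from spleen had an adjusted p of 0.158 and 0.133 without the first and the second liver library and of 0.067 without the first spleen library. Without the first kidney library, which had no Afp read, Afp was called in all 3.

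Remaining damage was measured last. In liver, Alb, Gc and Afm carried fewer adducts on the TS than on the NTS, and Afp was not called. The Damage-seq TS of Gc had 2.73 and 2.58 RPM per 1000 GG in liver (21 and 12 reads), below both libraries of every other organ (5.70 to 9.27). Its NTS had 11.6 and 6.96. For Alb the TS had 5.0 and 1.91 (13 and 3 reads) and the NTS 10.1 and 10.3. Afm had 3.27 and 2.60 on the TS and 6.75 and 5.34 on the NTS. In each of these genes both TS values lay below both NTS values. Afp had 11.2 and 5.65 on the TS and 4.95 and 7.28 on the NTS, which overlapped. The reads of a member on 1 strand of 1 library numbered from 3 to 94, so single differences have wide counting errors.

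The log2 ratio of TS to NTS damage in liver was -1.84 ± 0.32 for Gc (adjusted p = 1.89e-07), -1.45 ± 0.47 for Alb (adjusted p = 0.00941) and -1.04 ± 0.36 for Afm (adjusted p = 0.0144). For Afp it was 0.56 ± 0.41 (adjusted p = 0.361). A lower TS was called for 29.5% of all genes in liver, 18.8% in kidney, 24.5% in lung and 11.8% in spleen, and in these 3 organs no member was called. The calls of Alb and Afm were lost without the second liver library (adjusted p = 0.269 and 0.0945) and that of Afm also without the first (0.271). Gc kept its call.

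The strand ratio of Gc was also the only one among the members to differ between liver and each other organ. The log2 differences were -1.82 ± 0.40 from kidney, -2.01 ± 0.39 from lung and -1.50 ± 0.47 from spleen, with a largest adjusted p of 0.0385, a call shared by 1.86% of genes. It was lost without either liver library (adjusted p = 0.572 and 0.0525 against spleen) or either spleen library (0.177 and 0.21), and when each library was centred on its median ratio (0.0761). On the TS alone Gc had less damage in liver than in kidney (log2 difference -0.98 ± 0.33, adjusted p = 0.0165) and lung (-1.54 ± 0.32, adjusted p = 0.000438), and from spleen it differed by -1.05 ± 0.38 (adjusted p = 0.108). No member was called against all 3 organs on the TS, where 1.16% of genes were, with 6 of 12 unadjusted p under 0.05, and none by DESeq2. With scaling by library size only, Gc was. Its difference from kidney on the TS was lost with DESeq2 (0.0713), with the study's filters (0.0833) and without the second kidney library or either liver library (0.0929 to 0.127). On the NTS no member was called by edgeR or DESeq2, with 2 of 12 unadjusted p under 0.05, and 0.00908% of genes were.

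**Figure D3:**
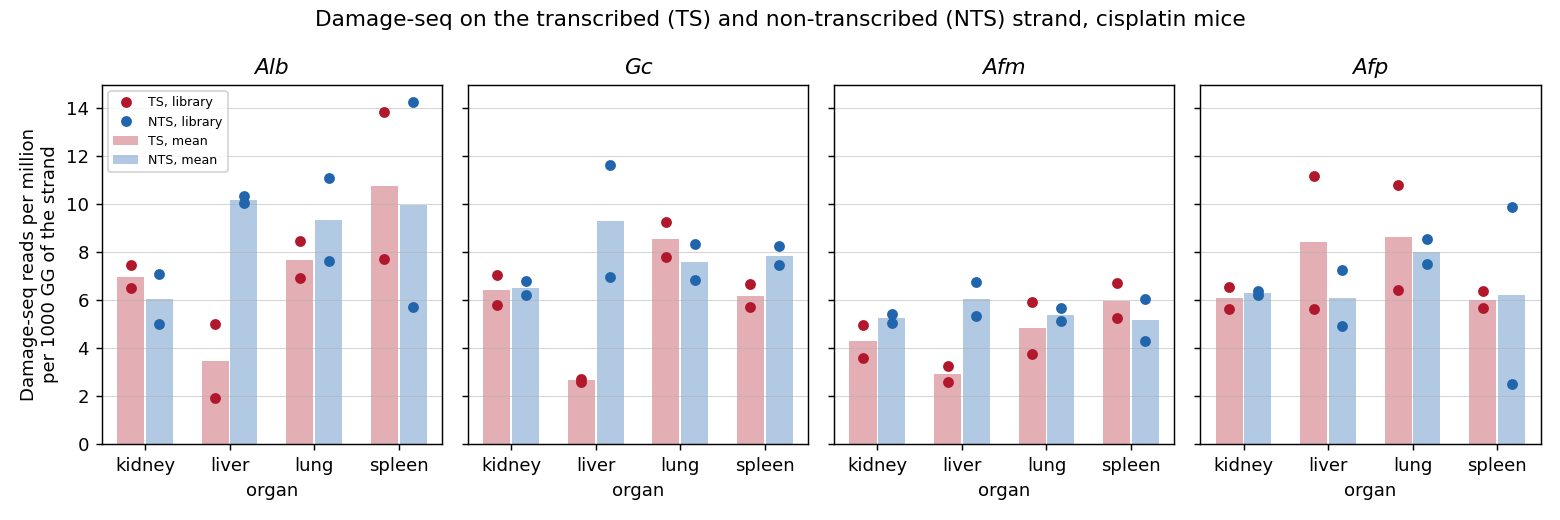
Damage-seq level of the TS and NTS of each member in the 4 organs of cisplatin mice, in RPM per 1000 GG, with points for the 2 libraries and bars for their mean. In liver both TS points of Alb, Gc and Afm lie below both NTS points, and the strands of Afp overlap.

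The cluster was then set against its neighbours, the 29 other counted genes from 1 Mb below Gc to 1 Mb above Afm. Genes of a region are linked and are not replicates, so their values are a description. By their level in cisplatin livers 14 were expressed (1 RPKM or more), 10 silent (under 0.1 RPKM) and 5 between these limits. The expressed genes had more repair of the TS than the silent ones, and among them repair did not rank by RNA level. The expressed neighbours had a median of 25.7 RPM per 1000 GG (range 0.468 to 42.4), 28.6 times that of the silent ones, 0.899 (0.150 to 2.69). The ratio was 61.4 in the first and 25.4 in the second liver library. Gc, Afm and Alb had 11.4, 9.78 and 23.4, all above every silent neighbour, and 8 of the 14 expressed neighbours exceeded Alb, the most abundant transcript of the organ. The Alb level is the mean of 15.5 and 31.4, and 11 of the 14 exceeded it in the first and 4 in the second liver library. Among the members, 339.99 times more Alb than Afm RNA went with 2.40 times more TS repair, and 10.1 times more Alb than Gc RNA went with 2.06 times more. These TS ratios were 1.66 and 1.46 in the first and 3.08 and 2.59 in the second library.

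Afp stood apart from the neighbours in NTS repair. With 0.803 RPKM in cisplatin livers it was 1 of the genes between the limits, and its TS repair of 4.49 lay within the range of the 5 such neighbours (0 to 14.02, median 6.37) and above every silent one. Its NTS repair was 33.2, where these 5 had 0.155 to 0.851 and the silent ones at most 2.07. The highest NTS level of a neighbour was 21.5, in Utp3, a gene with 40.0 RPKM. The NTS exceeded the TS in 6 of the 29 neighbours, each with at most 33 NTS reads over the liver libraries, against 2865 in Afp. Of the 26 neighbours tested in liver, 0 were called with the NTS higher, where 5.72% of all genes were. Damage on the TS had a median of 5.32 in expressed and 9.86 in silent neighbours, and Gc, Afm and Alb had 2.66, 2.93 and 3.45. Afp had 8.41, between the 2 medians. The TS was the less damaged strand in 11 of 14 expressed and 5 of 10 silent neighbours.

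**Figure D4:**
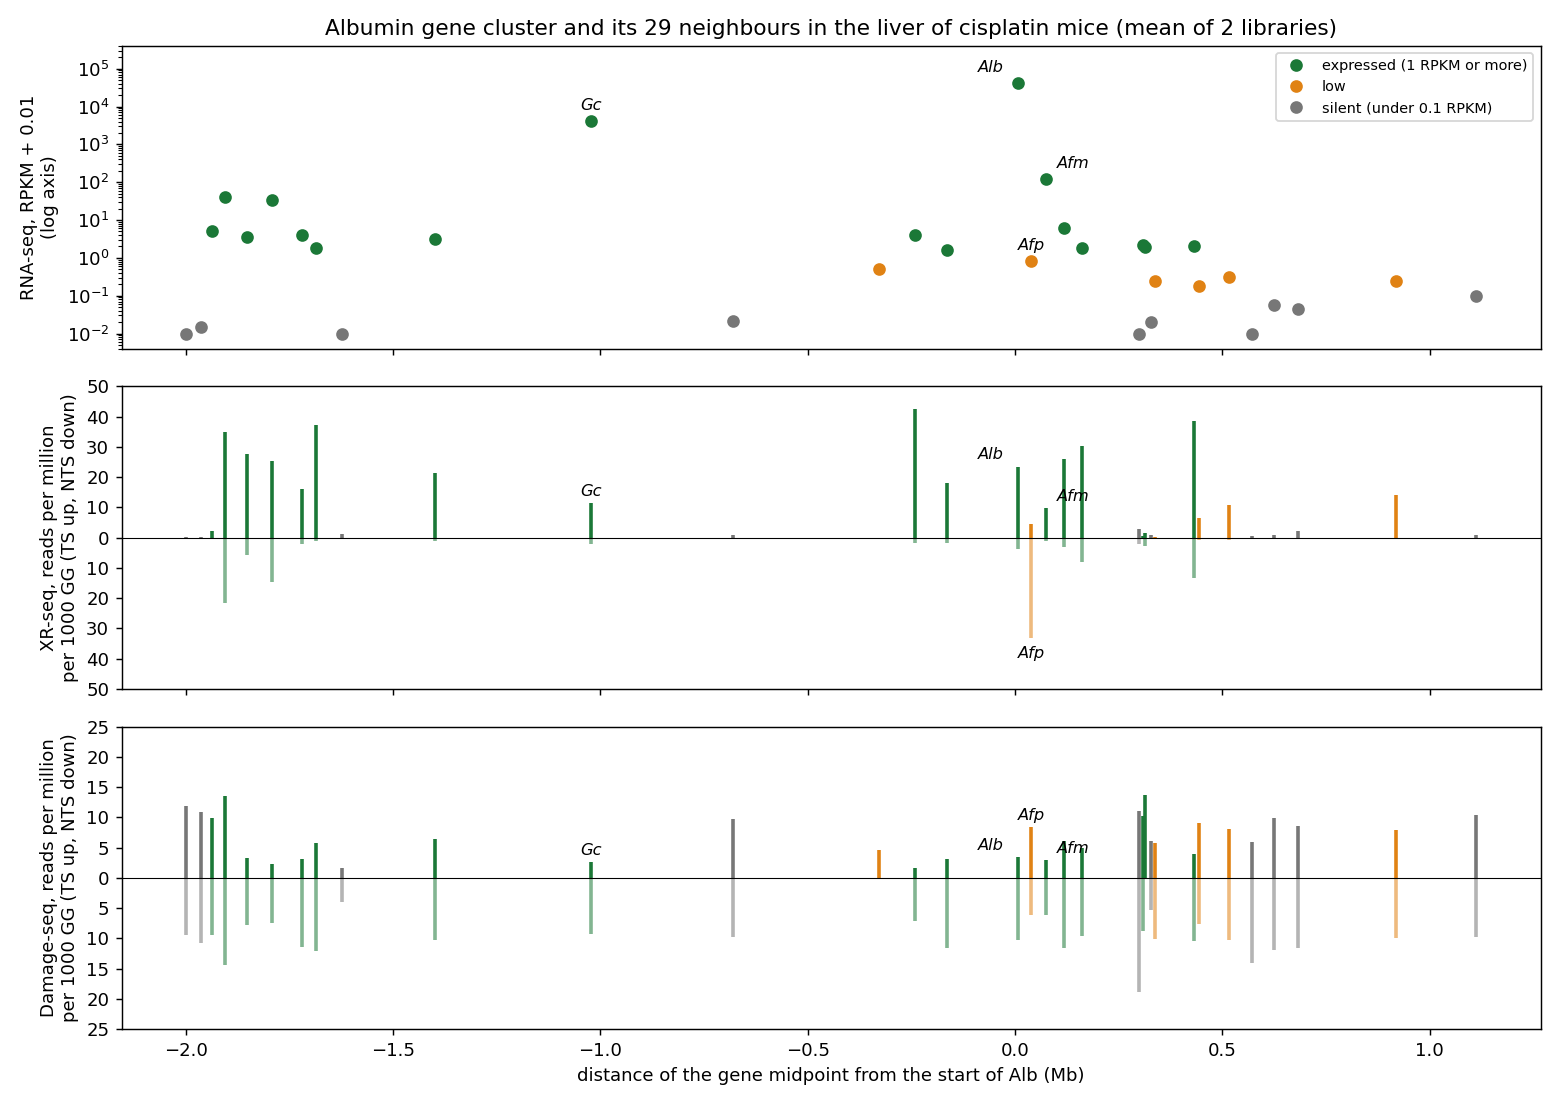
Liver of cisplatin mice across the region, with RNA-seq level in RPKM on a log axis, and XR-seq and Damage-seq levels per 1000 GG with TS up and NTS down, against the distance of each gene's midpoint from the start of Alb. Colours mark expressed, low and silent genes, values are means of 2 libraries, and Afp is the low gene with the NTS bar of 33.2.

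The genes next to the cluster varied. Downstream of Afm lies 5830473C10Rik, which RefSeq names Albfm1, a further member of the albumin family. It had 5.79 to 8.53 RPKM over the 4 liver libraries and at most 0.372 RPKM elsewhere, and was called higher in liver in RNA (log2 differences 5.80 to 12.99, largest adjusted p = 1.32e-06) and on the XR-seq TS (3.40 to 6.96, largest adjusted p = 1.76e-06). Its mean TS repair in liver was 25.9, from a transcript with 6.05 RPKM. This lay above the Alb mean of 23.4 but between the values of Alb in the first and second liver library (15.5 and 31.4). Ankrd17, upstream of Alb, had 1.65 RPKM and TS repair of 18.1. On either side of Gc lie Slc4a4, a bicarbonate transporter with 3.21 RPKM and TS repair of 21.3, and Adamts3, which was silent with 0.0120 RPKM and had TS repair of 0.952. These are the expressed and the silent neighbour with the most GG.

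Of the 25 neighbours tested in RNA-seq, 5830473C10Rik and the chemokine gene Cxcl1 (log2 differences 2.51 to 3.39, largest adjusted p = 0.00315) were higher in liver than in each other organ, and Parm1 (-5.84 to -4.51, largest adjusted p = 6.71e-07) was lower, where 9.28% of all genes were higher and 10.7% lower. On the XR-seq TS, 3 of 25 were higher, 5830473C10Rik, Btc (1.41 to 4.89) and Slc4a4 (1.22 to 4.72), and Adamts3 (-1.68 to -0.75) and Mob1b (-1.21 to -0.70) were lower, where 12.5% of all genes were higher and 10.0% lower. These counts are near the shares of all genes and are no result about the neighbours. On the XR-seq NTS 0 of 23 neighbours tested were called higher in liver, where 2.75% of all genes were. In the Damage-seq strand ratio 1 of 28 was called lower, Slc4a4 (-0.63 to -0.46, largest adjusted p = 0.001), where 1.86% of all genes were. These counts too are near the shares of all genes and are no result about the neighbours. Gm42109, a noncoding gene of the other strand that is not counted, overlaps 76.1% of 5830473C10Rik and 345 bp of Afm.

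Genes that regulate the cluster, mark its cell type or handle its proteins were read from lists. Of 16 transcription factors known to regulate it, 7 were called higher in liver RNA than in each other organ and none lower, beside 9.28% and 10.7% of all genes, with Onecut1 showing the largest rise (log2 differences 10.75 to 12.83). The median of this list was 1.09, 1.48 and 5.67 against kidney, lung and spleen, beside -0.08, -0.30 and -0.49 over all genes. All 14 hepatocyte markers were called higher, as were all 12 of them that encode secreted proteins, led by Ahsg, the gene of fetuin-A. Their medians were 10.36, 11.93 and 12.02 for the 14 and 10.01, 11.93 and 12.02 for the 12. Of 10 genes of albumin and vitamin D handling, 3 were called higher, with Cyp27a1, a mitochondrial hydroxylase of bile acid and vitamin D synthesis, showing the largest rise (4.37 to 5.86). Vdr, the vitamin D receptor, was lower (-9.35 to -3.56), and the list had medians of -6.77, 0.76 and 1.49. No list of other organs' markers held a gene called higher: 0 of 6 for the kidney tubule, 0 of 5 for lung epithelium and 0 of 5 for B and T cells. Of 4 Kupffer cell and liver endothelial markers 2 were higher, and of 3 cholangiocyte markers Sox9 was higher and Epcam lower.

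Under cisplatin 4 of the 16 regulators were called in kidney, where 3.12% of all genes were, and 2 in liver, where 2.71% were. In kidney 3 rose and 1 fell, with a median of -0.40 beside 0 over all genes. Foxa2 showed the largest rise (log2 change 3.28 ± 0.69, adjusted p = 0.0346), but stayed at or under 0.270 RPKM in every kidney library, cisplatin included. Zhx2, a repressor of Afp after birth, fell by 1.55 ± 0.29 (adjusted p = 0.0268). In liver Cebpb rose by 2.18 ± 0.38 (adjusted p = 0.0171), Zhx2 fell by 1.86 ± 0.29 (adjusted p = 0.0117), and the median was -0.29 beside 0. By edgeR no regulator was called in lung or spleen, where 2 and 1 had an unadjusted p under 0.05. Nfil3, a repressor with a daily rhythm, was the only one whose response differed between liver and another organ (log2 difference -2.85 ± 0.33 from kidney, adjusted p = 0.0147). By edgeR no hepatocyte marker was called, with 1 of 14 at an unadjusted p under 0.05 in kidney and 0 in the other organs, and no gene of the handling list was, with 1 of 10 at such a p in kidney and in liver, 4 in lung and 0 in spleen. For these lists no DESeq2 calls were counted. Of 5 lung epithelium markers, the surfactant gene Sftpa1 rose in liver by 3.01 ± 0.52 (adjusted p = 0.014). This was a change at trace level, 0.144 to 2.22 RPKM over the liver libraries against 1034 to 1287 RPKM in lung. The median of these markers was 2.05 in liver, 1.42 in spleen, 0.42 in kidney and 0.14 in lung. By edgeR, 4 of the 5 had an unadjusted p under 0.05 in liver, 1 in spleen, 1 in kidney and 0 in lung. The 5 markers of B and T cells, given as a list, had a median of -1.32 in kidney and -1.98 in lung. By edgeR 3 and 5 of them had an unadjusted p under 0.05 there. In liver and spleen their medians were -0.47 and 0.0062, with 2 and 0 at such a p.

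In repair, 11 of the 16 regulators were called higher on the TS in liver than in each other organ, as were 9 of 14 hepatocyte markers, 7 of 12 secreted proteins and 2 of 10 handling genes, beside 12.5% of all genes. A further 2 handling genes were lower, beside 10.0%. The TS was called higher than the NTS in liver in 10 of 16 regulators, 5 of 14 hepatocyte markers, 4 of the 12 secreted ones, among them Apob (log2 ratio 3.46 ± 1.19, adjusted p = 0.0372), and 5 of 10 handling genes, beside 48.1% of all genes. These small counts were not tested against that share and are no result about the lists. In Damage-seq the TS was called lower than the NTS in liver in 10 of 15 regulators, 6 of 14 hepatocyte markers, 5 of 12 secreted ones, where Apob was again the extreme (-1.74 ± 0.28, adjusted p = 4.61e-08), and 2 of 10 handling genes, beside 29.5% of all genes. These counts were not tested against that share either. Cubn, which encodes the albumin receptor cubilin, had a TS to NTS repair ratio of -3.24 ± 0.37 in liver (log2, adjusted p = 9.84e-05). It was named as an extreme of its list, and its RNA was at or under 0.0476 RPKM in every liver library. Of all genes, 5.72% were called with the NTS higher in liver.

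Across the 14 RNA-seq samples, the genes whose levels followed a member most closely were given by Pearson's r of log2(RPKM + 0.1) over 15499 genes, as a description. The samples share organs, so that r mostly reflects the liver. For Alb they were the apolipoprotein genes Apoa1 (r = 0.992), Apoa2 (0.985) and Apoc3 (0.983), and for Afm Agt (0.998), Gcgr (0.995) and Uroc1 (0.995). For Gc they included Hpd (0.985) and Baat (0.984). For Afp they were Rab43 (0.890), Hdhd5 (0.864) and Adam11 (0.862), and its r with Alb was -0.0057, against 0.943 between Gc and Alb, 0.957 between Gc and Afm and 0.821 between Afm and Alb.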

How the data were processed

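Damage-seq and XR-seq reads per gene and strand (TS, NTS) and RNA-seq reads per gene were deposited as raw counts. The authors trimmed reads with cutadapt, aligned them with BWA (Damage-seq, XR-seq) or STAR (RNA-seq) to mm10, removed duplicates with Picard and counted RNA-seq reads with featureCounts; versions are not given in the sources used here. A row without an identifier in each Damage-seq and XR-seq file (0 reads in each) was dropped.

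Positions and GG counts came from GRCm38.p6 with GENCODE M21. RNA-seq was tested with edgeR 4.0.16 (R 4.3.3; filterByExpr, TMM, glmTreat at a log2 fold change of 0.4), the strands with its quasi-likelihood F-test on genes with 20 or more reads, and strand ratios with library terms and a GG offset (10 or more GG per strand). Liver calls needed an adjusted p (Benjamini-Hochberg over all genes) under 0.05 against each organ. The 2 control libraries of lung and of spleen had a dispersion index (chi-square per degree of freedom) of 2.75 and 2.98. This is above sampling noise alone but below the other RNA-seq pairs (39.3 to 349). RNA-seq pairs at or under a limit of 3 were summed, which leaves 14 RNA-seq samples. The limit was not applied to Damage-seq or XR-seq. Damage-seq pairs had an index of 1.43 to 2.85, apart from 3.11 on the kidney NTS, and were still counted as 2 replicates. The adjusted p of Damage-seq rest on that count. Alternatives were DESeq2 1.42.0, other scalings and filters, and each library left out. Scripts were tested on simulated data.

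The members and lists were chosen with earlier results of these data known. Named genes were the members, the genes next to them, region genes called in liver, the extremes of each list and the 3 genes most alike each member; Utp3 and the hepatocyte markers at 0 in a spleen library were named after their values were seen, and 2 genes are not reported here.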

Additional observations from a re-analysis of the deposited data

Results flagged for a closer look

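The strand ratio of repair at Afp differed between liver and spleen, with a log2 difference of -7.43 ± 1.16 (adjusted p = 0.0117 over all genes). The TS held 6.62% and 15.1% of the Afp reads in the 2 liver libraries and 97.7% and 93.3% in the 2 spleen libraries. The first spleen library had only 43 Afp reads.

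The strand ratio of remaining damage at Gc was lower in liver than in kidney (log2 difference -1.82 ± 0.40), lung (-2.01 ± 0.39) and spleen (-1.50 ± 0.47). The TS held 18.3% and 26.1% of the Gc reads in the 2 liver libraries and 42.1% to 52.0% in the others, from 46 to 183 reads per library.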

How the results depend on the processing

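Of the values of single members recomputed under an alternative, 811 kept their direction and side of the threshold, 58 lost and 12 gained a call, and 15 changed sign. Depth limits the strand results: 10 to 42 XR-seq reads lay on Alb in each organ outside liver, a strand of a member held 3 to 94 reads in a Damage-seq library, and with 2 libraries per organ a left-out library leaves 1, assumed to vary like the others. The cause of the changes below was not tested.

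Of the 4 members, the number called higher in liver on the XR-seq TS went from 2 to 1 with library size only (Alb) and to 1 with DESeq2 (Gc), and ranged from 0 to 3 over the left-out libraries. On the XR-seq NTS DESeq2 called 2. Over the left-out libraries the number with unequal strands in XR-seq ranged from 0 to 4 in liver and from 0 to 1 in kidney, and that with a different XR-seq strand ratio from 0 to 1. For Damage-seq, library size only called 1 on the TS, unequal strands in liver ranged from 1 to 3, and the different strand ratio was lost when centred (0) and ranged from 0 to 1. A region of 0.5 Mb on either side held 8 expressed and 4 silent neighbours. For RNA-seq, library size only and leaving out both spleen cisplatin libraries were alternatives chosen after seeing the data.

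With library size only, Afp in liver against spleen changed sign in RNA (-0.61) and on the XR-seq TS (-0.22). Over the left-out libraries that XR-seq value ranged from -0.61 to 0.41. The other ranges that crossed 0, on the log2 scale, were those of cisplatin against control RNA in spleen for Alb (-12.73 to 4.17), Gc (-5.44 to 4.54) and Afm (-3.48 to 2.93). The XR-seq NTS of Gc in liver against kidney ranged from -0.90 to 0.54 and its TS to NTS ratio in lung from -2.51 to 0.69. For TS to NTS ratios of damage the ranges were -0.10 to 0.054 for Gc and -0.12 to 0.58 for Alb in kidney, -0.68 to 0.15 for Alb and -0.60 to 0.22 for Afm in lung, and -0.044 to 0.44 for Alb in spleen.

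The labels do not say whether a replicate number marks a shared animal. Same-numbered RNA-seq samples had correlations of deviations from 0.0716 to 0.369, and same-numbered XR-seq and Damage-seq libraries from -0.102 to 0.0842. With a replicate block the RNA-seq call of liver genes went from 3 members to 1 (Afm), as Alb and Gc had adjusted p of 0.0503 and 0.05 against kidney, and Afp against spleen on the XR-seq TS became -0.25. The block called 3 members on the XR-seq TS.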
